A study of Mus musculus with 54 samples.

Results

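The promoters of 4 stress and immediate early genes, Fos, Hsp90aa1, Chac1 and Cebpd, were examined in the ChIP-seq peak lists of 42 KRAB-zinc finger proteins (KZFPs). A peak belonged to a gene when its summit, the base with the highest signal, lay within 2000 bp of any annotated transcription start of that gene (GENCODE M39, GRCm39), and 17 of 25012 deposited peaks met this rule. The 4 genes were selected on measured values of these same lists, so the number of lists per gene, the folds and the ranks are given as a description and no test was made on them.

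The KZFPs are encoded in the gene cluster at the end of mouse chromosome 4 in the strain C57BL/6J. Each was expressed from a stably transfected plasmid in F9, a mouse embryonal carcinoma cell line, carried an HA tag, and was recovered with an antibody against HA. All cultures carried the same kind of plasmid, and the controls carried it without a KZFP (empty vector). The labels place the libraries in 5 batches, with 1 library per KZFP, 1 mixed input library per batch and 4 empty vector controls in batches 1, 2 and 4. There are no replicates, so no value below has an error between experiments, and a binding site of an over-expressed protein need not be one at its natural level.

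KZFPs bind DNA through arrays of zinc fingers and recruit the co-repressor TRIM28 through the KRAB domain, which leads to H3K9me3 and silencing, mostly of transposable elements. Promoters of host genes are the other kind of place where such proteins are found. Fos encodes a subunit of the AP-1 transcription factor and is the classical immediate early gene, switched on within minutes of serum or growth factor stimulation without new protein synthesis. Hsp90aa1 encodes the stress-inducible form of the cytosolic chaperone HSP90, a target of heat shock factor 1. Chac1 encodes an enzyme that degrades glutathione and is induced through ATF4 in the integrated stress response. Cebpd encodes C/EBP delta, a bZIP transcription factor of the acute phase and inflammatory response.

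The sequences at the summits are shown for the sites on which the description turns, each on the strand of its gene and read from GRCm39. They are Fos at the border of exon 1 and intron 1 (chr12:85520895-85521014, plus strand, capitals from the first to the last of 4 summits), Chac1 in the coding part of exon 1 (chr2:119181996-119182089, plus strand, capitals at the 5 summit bases), and 3 sites of Hsp90aa1 on the minus strand. Those of Hsp90aa1 are 30 bases of intron 1 (chr12:110662510-110662539, capitals at the closest match to the motif of Zfp_MB005), the stretch upstream of the main start (chr12:110663024-110663144, capitals at the closest match to the motif of Zfp982) and the stretch before the distal start (chr12:110669167-110669316, capitals from 1 summit to the other). Cebpd is shown just upstream of its start (chr16:15705000-15705149, plus strand, capitals at the closest match to the motif of Zfp982).
Fos exon 1 to intron 1: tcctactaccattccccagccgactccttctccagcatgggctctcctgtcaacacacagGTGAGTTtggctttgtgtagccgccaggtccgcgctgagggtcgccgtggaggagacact
Chac1 exon 1: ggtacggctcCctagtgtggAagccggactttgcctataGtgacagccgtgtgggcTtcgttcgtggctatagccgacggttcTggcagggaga
Hsp90aa1 intron 1: ggcctcatATCTACGCCCCAGGCcggggat
Hsp90aa1 upstream: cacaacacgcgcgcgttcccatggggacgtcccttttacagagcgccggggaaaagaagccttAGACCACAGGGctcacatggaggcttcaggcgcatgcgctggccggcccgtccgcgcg
Hsp90aa1 distal start: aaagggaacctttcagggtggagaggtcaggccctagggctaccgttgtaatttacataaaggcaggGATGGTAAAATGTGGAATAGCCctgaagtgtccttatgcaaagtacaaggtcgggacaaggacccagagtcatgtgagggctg
Cebpd upstream: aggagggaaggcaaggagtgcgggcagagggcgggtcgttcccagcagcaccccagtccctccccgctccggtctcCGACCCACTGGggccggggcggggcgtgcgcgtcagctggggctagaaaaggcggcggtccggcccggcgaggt

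The 17 peaks came from 12 of the 42 lists. Fos had a summit in 6 lists, Hsp90aa1 in 5, Chac1 in 5 and Cebpd in 1. Of the 12 KZFPs, 7 had a peak at 1 of the genes and 5 had a peak at 2, and no list held 3. Among all 21757 protein-coding genes, 4989 (22.9%) had a summit within 2000 bp of a start in any list, and 26 genes (0.12%) had one in 5 or more lists. Fos, Hsp90aa1 and Chac1 belong to these 26, whereas Cebpd is among 3973 genes with 1 list. The genes with the most lists were Polrmt (13), Gm45844 (10), Inpp5f (10), Serpinb6a (9), Hmgxb4, Selenot and Zbtb7a (8 each), and Mndal, Tlk2 and Zfp316 (7 each).

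**Figure D1:**
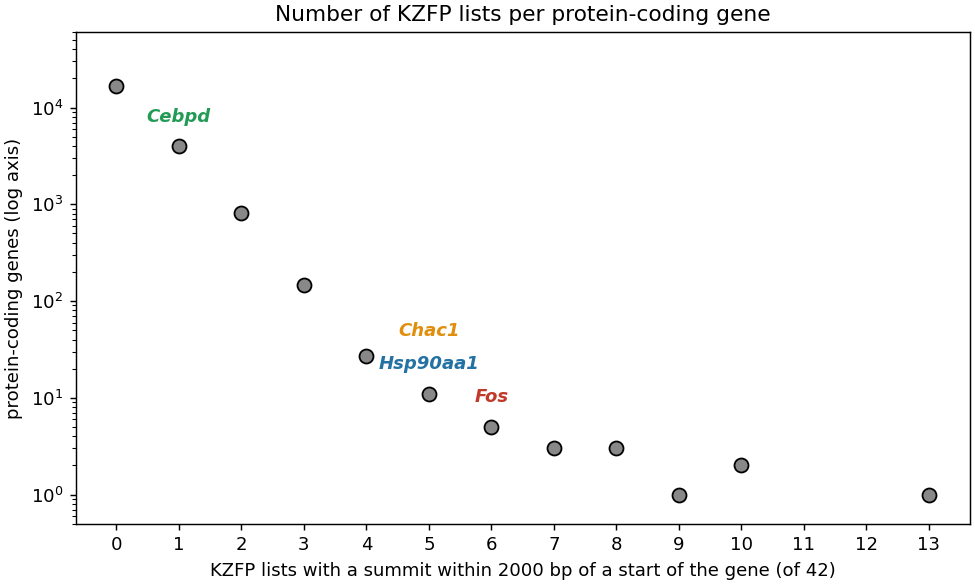
Number of protein-coding genes (log axis) by the number of KZFP lists, of 42, with a summit within 2000 bp of a start of the gene; each point counts the genes with that number of lists. Fos stands among 5 genes with 6 lists, Hsp90aa1 and Chac1 among 11 genes with 5, and Cebpd among 3973 genes with 1.

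The lists differ in size and in how often their summits lie near gene starts, so an entry in them has a different background. The list of Zfp982 had a summit near 12.3% of all protein-coding genes, that of Zfp_MB016 near 6.11% and that of Zfp_MB003 near 1.39%. For the other 9 lists the share was 0.529% (Zfp_MB005), 0.437% (Zfp_MB011), 0.216% (Zfp_MB023 and Zfp_MB025 alike), 0.152% (Zfp_MB018), 0.106% (Zfp6002), 0.0735% (Zfp600), 0.0414% (Rex2) and 0.0276% (Zfp6001). A peak of Rex2 at Chac1 is thus 1 of 9 genes near which that list had a summit, and a peak of Zfp982 at Cebpd is 1 of 2672.

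Every peak passed the authors' filter against the empty vector controls, which removed any peak that touched a control peak. This filter drew on controls of batches 1, 2 and 4, and 3 of the 12 KZFPs (Zfp_MB003, Zfp_MB005 and Zfp_MB011) were made in batch 3, which had none of its own. The lists of Zfp600, Zfp_MB003 and Zfp_MB011 were cut at a fold enrichment over input of 5 and the other 9 at 10. A gene missing from a list has no peak past these cutoffs there, which does not show that the protein was absent from it. Since each batch has its own input, a fold is compared below with the other peaks of the same list.

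Fos was bound by Zfp6001, Zfp_MB025, Zfp_MB011, Zfp600, Zfp_MB003 and Zfp_MB016, and 4 of these 6 summits fell on the first bases of intron 1. The Fos gene lies on chromosome 12 (chr12:85520658-85524047, plus strand). Counted from 0 at the first base of the transcript, position +297 is the first base of intron 1. The summit lay at +297 for Zfp600, at +297 for Zfp_MB011, at +298 for Zfp_MB025 and at +303 for Zfp6001. They span 6 bp, the capitals in the Fos sequence above, which begin with the 5′ splice site.
The summit of Zfp_MB003 lay at +176, in the coding part of exon 1. That of Zfp_MB016 lay 1586 bp upstream of the start. It was at -80 from the start of the lncRNA gene Gm56522, and the other Fos summits were at -1842 to -1969 from it. Another lncRNA gene, Gm56509, starts near the summits of Zfp_MB016 (192 bp) and Zfp_MB003 (1954 bp). The Zfp_MB016 summit is the member nearest to the 2000 bp limit, and the next farthest was at 390 bp.

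The fold at Fos was 23.6 for Zfp_MB025, 15.1 for Zfp_MB016, 11.9 for Zfp6001, 11.2 for Zfp_MB011, 5.52 for Zfp_MB003 and 5.27 for Zfp600. Within its own list the Fos peak ranked 2 of 56 by fold for Zfp_MB025 and 6 of 296 for Zfp_MB011. It ranked 174 of 360 for Zfp_MB003, 3710 of 6183 for Zfp_MB016, 88 of 103 for Zfp6001 and 48 of 51 for Zfp600. The Fos locus was therefore among the strongest peaks of 2 KZFPs and in the middle or lower part of the other 4 lists.
Among the peaks near protein-coding starts alone, the Fos peak ranked 1 of 38 for Zfp_MB025, 3 of 83 for Zfp_MB011, 5 of 6 for Zfp6001 and 15 of 16 for Zfp600. Ranked by -log10 q in place of fold, 82.6% of a list's other peaks were lower at the median over the 6 lists, against 45.9% when ranked by fold.

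3 of the Fos peaks covered the whole gene. They were 5067 bp wide for Zfp_MB025, 4037 bp for Zfp6001 and 3781 bp for Zfp_MB011, against a median width of 986.5, 790 and 371 bp in those lists. The Fos peak was the widest of 103 for Zfp6001 and the third widest of 296 for Zfp_MB011. The peaks of Zfp_MB003 (1005 bp), Zfp_MB016 (794 bp) and Zfp600 (433 bp) were narrower and covered at most 17.4% of the gene.
Zfp_MB003 and Zfp_MB011 share a fingerprint array (the DNA-contacting residues of their zinc fingers). Their Fos summits stood at +176 and +297, with folds of 5.52 and 11.2. Both libraries were made in batch 3 and share its mixed input.

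**Figure D2:**
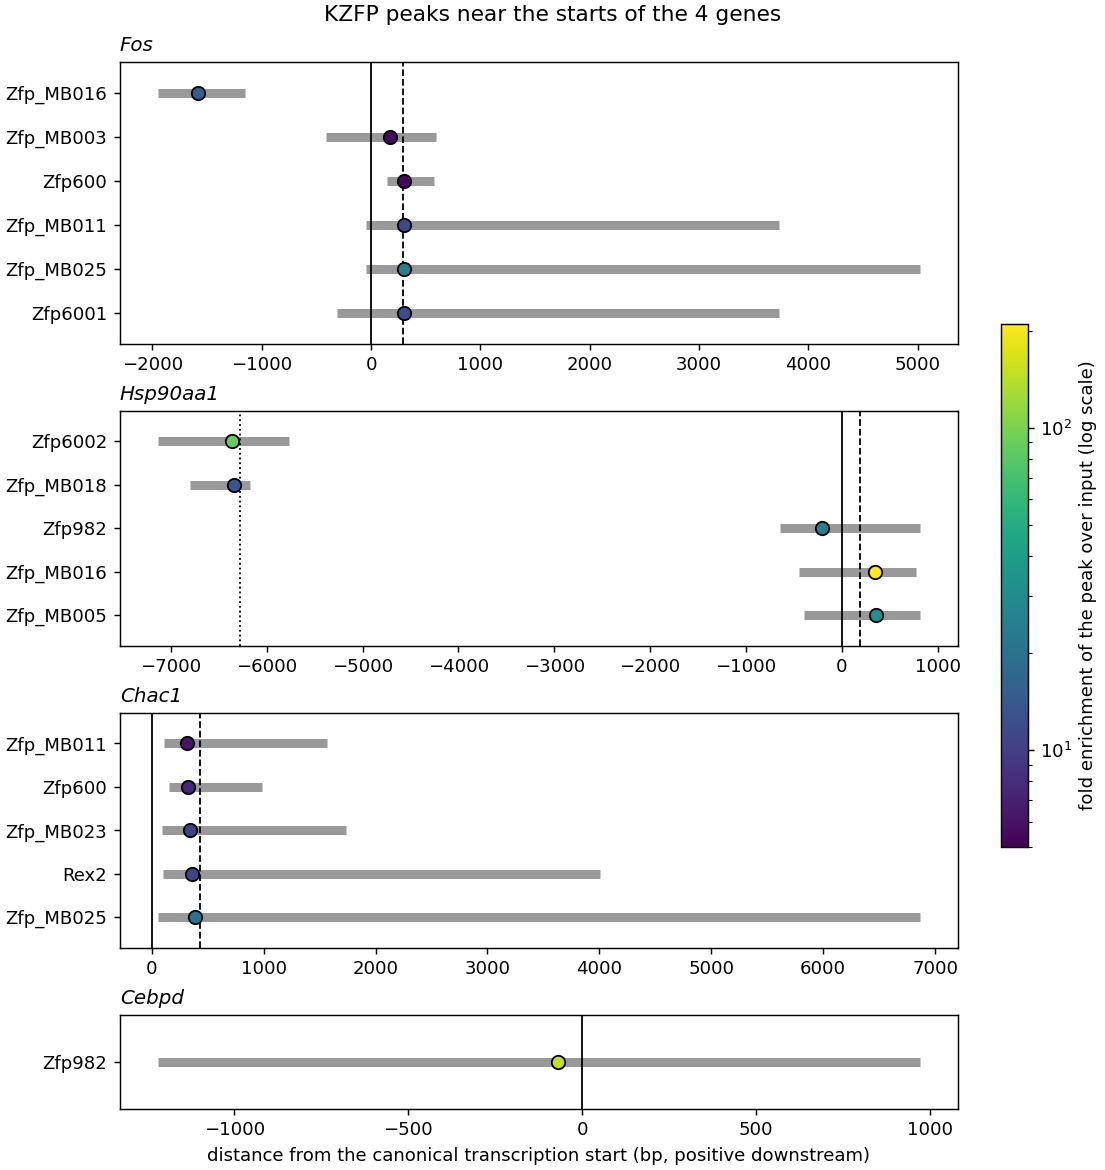
Peaks with a summit within 2000 bp of a start, by gene and KZFP, at their distance from the canonical transcription start in bp (positive downstream). Grey bars are the peaks, circles the summits coloured by fold (log scale), solid lines the canonical start, dashed lines the end of exon 1 and the dotted line the distal start of Hsp90aa1; 4 Fos summits stand at +297 to +303 and the 5 Chac1 summits at +317 to +390.

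Chac1 was bound by Zfp_MB025, Zfp600, Zfp_MB011, Rex2 and Zfp_MB023, all inside the coding part of exon 1 and downstream of the start. The gene lies on chromosome 2 (chr2:119180757-119184866, plus strand), with the canonical start at base 119181689 and a second start at its 5′ end. From the canonical start the summits lay at +317 (Zfp_MB011), +327 (Zfp600), +346 (Zfp_MB023), +363 (Rex2) and +390 (Zfp_MB025). They span 73 bp, and each lay 38 to 111 bp before the end of exon 1. The 5 KZFPs have 5 different fingerprint arrays.
The fold at Chac1 was 19.8 for Zfp_MB025, 10.7 for Rex2, 10.2 for Zfp_MB023, 7.48 for Zfp600 and 6.07 for Zfp_MB011. The peak ranked 5 of 56 for Zfp_MB025, 14 of 51 for Zfp600, 102 of 296 for Zfp_MB011, 114 of 128 for Rex2 and 292 of 300 for Zfp_MB023. For Rex2 and Zfp_MB023 the fold was thus close to the cutoff of 10, with 11.02% and 2.68% of the other peaks lower.

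The Chac1 peaks were wide in all 5 lists, including those in which their fold was low. They measured 6810 bp for Zfp_MB025, 3899 bp for Rex2, 1652 bp for Zfp_MB023, 1461 bp for Zfp_MB011 and 832 bp for Zfp600, against list medians of 986.5, 479, 271, 371 and 338 bp. By width the Chac1 peak was the first of 128 for Rex2, the second of 300 for Zfp_MB023 and the second of 56 for Zfp_MB025. It covered 76.0% of the gene for Zfp_MB025, 74.8% for Rex2, 40.2% for Zfp_MB023, 35.5% for Zfp_MB011 and 20.2% for Zfp600.
The lists of Zfp600 and Zfp_MB011 each held 2 more peaks beyond the 2000 bp limit. Those just outside it lay at +2682 with a fold of 5.89 (Zfp600) and at +2760 with a fold of 5.30 (Zfp_MB011), and the farther ones at +4693 (5.68) and +6540 (5.00).

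**Figure D3:**
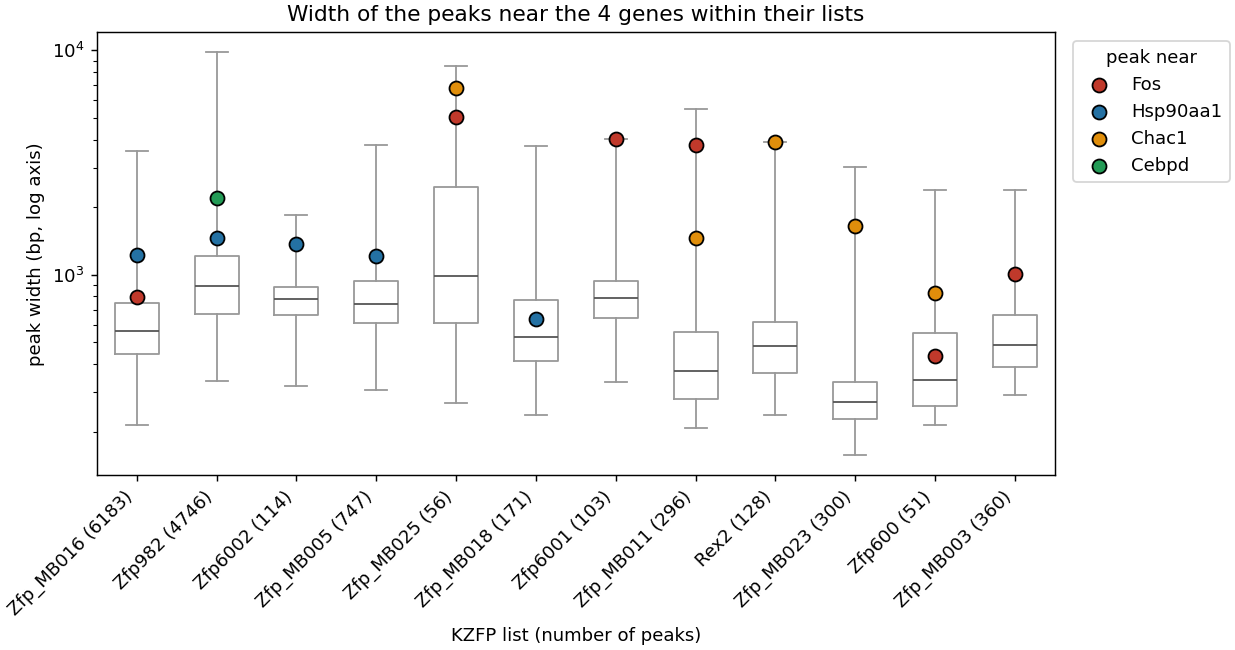
Width of the peaks near Fos, Hsp90aa1, Chac1 and Cebpd (coloured circles, bp on a log axis) within the 12 lists that hold them; boxes give the quartiles and median of all peaks of the list, whiskers its narrowest and widest peak. All 17 circles lie above the list's median, and the Fos peak of Zfp6001 and the Chac1 peak of Rex2 are the widest of their lists.

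Fos and Chac1 shared 3 KZFPs, Zfp600, Zfp_MB011 and Zfp_MB025. The fold was 5.27 at Fos and 7.48 at Chac1 for Zfp600, 11.2 and 6.07 for Zfp_MB011, and 23.6 and 19.8 for Zfp_MB025. Only 10 protein-coding genes (0.046%) had a summit near a start in all 3 lists, a set of lists that was chosen after the values were seen. They are Fos, Chac1, Egr1, Ier2, Actb, Gm45844, Inpp5f, Polrmt, Selenot and Tlk2. Zfp600 and Zfp_MB025 share the mixed input of batch 4, whereas Zfp_MB011 belongs to batch 3.
The genes of this set differed in the width of the peak in 2 of the 3 lists. In the list of Zfp_MB025 it was 5067 bp at Fos, 6810 bp at Chac1, 6451 bp at Actb, 5352 bp at Egr1 and 3135 bp at Ier2, and 617 to 887 bp at Gm45844, Inpp5f, Polrmt, Selenot and Tlk2. In the list of Zfp_MB011 it was 3781 bp at Fos, 1461 bp at Chac1, 5124 bp at Egr1, 1618 bp at Ier2 and 1302 bp at Actb, and 529 to 795 bp at the other 5. In the list of Zfp600 the widths overlapped, with 433 bp at Fos, 832 bp at Chac1, 804 bp at Egr1, 451 bp at Ier2 and 215 bp at Actb, and 241 to 571 bp at the other 5. With 1 library per KZFP these differences have no test, and the genes are grouped here by the widths themselves.

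Hsp90aa1 was bound at 3 separate places by 5 KZFPs, with the highest fold of all 17 peaks. The gene lies on chromosome 12 (chr12:110656842-110669166, minus strand), with the canonical start at base 110662881 and a distal start at base 110669166, and is annotated with 18 distinct starts, against 3 for Fos and 2 each for Chac1 and Cebpd. Zfp_MB016 had its summit at +352 from the canonical start and Zfp_MB005 at +361, 9 bp apart. Both positions are in intron 1 of the canonical transcript and in the 5′ UTR of 2 other transcripts. The summit of Zfp982 lay 203 bp upstream of the canonical start. Those of Zfp6002 and Zfp_MB018 lay 83 and 62 bp upstream of the distal start, 21 bp apart, and at -6368 and -6347 from the canonical start.
The fold at Hsp90aa1 was 205 for Zfp_MB016, 87.6 for Zfp6002, 31.9 for Zfp_MB005, 23.9 for Zfp982 and 13.5 for Zfp_MB018. The peak ranked 5 of 6183 for Zfp_MB016, 2 of 114 for Zfp6002, 77 of 747 for Zfp_MB005, 1250 of 4746 for Zfp982 and 70 of 171 for Zfp_MB018. All 5 folds lay above the median of their list, by 12.1 times for Zfp_MB016 and by 5.43 times for Zfp6002.

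The Hsp90aa1 peaks were of moderate width, 634 bp for Zfp_MB018 and 1213 to 1452 bp for the other 4, and covered at most 11.8% of the gene. The peaks of Zfp982, Zfp_MB016 and Zfp_MB005 at the canonical start overlapped each other, although the summit of Zfp982 stood on the other side of the start. The closest peak outside the 2000 bp limit belonged to Zfp_MB005, at -4105 from the distal start, with a fold of 32.4 and rank 74 of 747. The lncRNA gene Gm60091 starts 573 and 594 bp from the summits at the distal start.

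**Figure D4:**
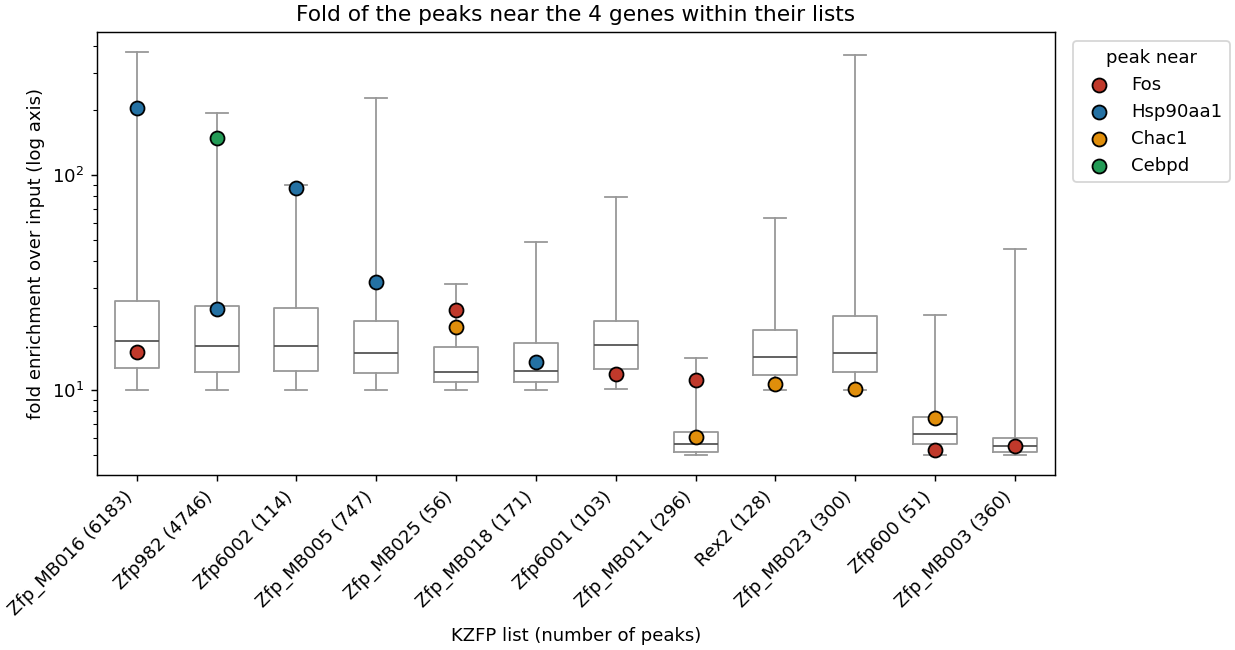
Fold enrichment over input of the peaks near Fos, Hsp90aa1, Chac1 and Cebpd (coloured circles, log axis) within the 12 lists that hold them; boxes give the quartiles and median of all peaks of the list, whiskers its lowest and highest fold. The peaks of Zfp_MB016 and Zfp6002 at Hsp90aa1 and of Zfp982 at Cebpd stand near the top of their lists, with folds of 205, 87.6 and 149, and 5 of the 17 circles lie at or below the list's median.

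At each of the 2 places where Hsp90aa1 was bound by a pair of KZFPs, the pair had similar motifs in spite of different fingerprint arrays. The motifs used were those that the study derived with MEME from the same peaks, so they are not independent of the lists. The motifs of Zfp_MB016 and Zfp_MB005 have 11 letters in common in 1 alignment without gaps. The motifs of Zfp6002 and Zfp_MB018 are compatible at 14 of 14 aligned letters, on opposite strands. Over the whole lists, 7.57% of the peaks of Zfp_MB016 and 62.5% of those of Zfp_MB005 overlapped a peak of the other. For Zfp6002 and Zfp_MB018 these shares were 16.8% and 11.2%. Zfp_MB003 and Zfp_MB011, both at Fos, went the other way: they share a fingerprint array, but their motifs are compatible at 5 of 11 aligned letters. Their shares of overlapping peaks were 11.7% and 14.3%.
None of the Hsp90aa1 windows, the 201 bp around each summit, held an exact match to the motif of its KZFP. Of the other windows of each list, 39.2% (Zfp_MB016), 22.3% (Zfp6002), 20.8% (Zfp982), 18.7% (Zfp_MB005) and 2.96% (Zfp_MB018) held one. The closest match to the motif of Zfp_MB005, TGATACGTCCTAGGC, had its centre 4 bp from the summit and differed from it by 5 letters, T1A, G2T, A3C, T8C and T11C, counted from the 5′ end of the motif with the motif's letter first. A match with as few differences was present in 71.3% of the other windows of that list. At the same place the closest match to the motif of Zfp_MB016 differed at 3 of 13 letters, and 73.4% of the other windows of that list had as close a match or a closer one. At the distal start the closest matches for Zfp6002 and Zfp_MB018 each differed at 5 of 15 letters, 47 and 11 bp from the summit. Of the other windows of those lists, 95.5% and 74.6% had as close a match or a closer one.

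Cebpd had a peak in the list of Zfp982 alone, among the highest folds of that list. The gene has a single exon on chromosome 16 (chr16:15705150-15708895, plus strand). The summit lay 69 bp upstream of the start and 3 bp from the start of the lncRNA gene Gm56598. The fold was 149, rank 9 of 4746 in the list and 8 of 2458 among its peaks near protein-coding starts, and 9.24 times the list's median. The peak was 2193 bp wide, against a median of 895 bp. No other list had a peak within 2000 bp, and the nearest one outside, of Zfp_MB001, stood at -9918 with a fold of 30.4.
The motif of Zfp982, AGACCCTCTGG, had its closest match exactly at the Cebpd summit, with the differences A1C and T7A. Of the other 4744 windows of the list, 34.7% had a match with as few differences and 20.8% an exact one. At Hsp90aa1, the other gene bound by this KZFP, the closest match had its centre 8 bp from the summit and differed by C6A, T7C, C8A and T9G. A match that close or closer was present in 98.9% of the other windows. The RCADE motif of Zfp982 gave the opposite order, with 2 of 9 letters differing at Cebpd (86.9% of the other windows as close or closer) and 1 of 9 at Hsp90aa1 (41.3%).

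At Fos and Chac1 the closest matches to the MEME motifs ranged from 3 to 7 differences. The window of Zfp6001 at Fos differed from its motif at 6 of 13 letters, and all 101 other windows of that list had as close a match or a closer one, 30.7% of them an exact one. The windows of Zfp_MB011 at Fos and Chac1 differed at 7 and 6 of 15 letters, and 91.5% and 57.7% of the other windows were as close or closer. That of Rex2 at Chac1 differed at 4 of 15 (63.0%) and that of Zfp_MB016 at Fos at 3 of 13 (73.4%). The share was lowest for Zfp_MB023 at Chac1, at 4 of 15 letters (18.4%), and for Zfp_MB003 at Fos, at 4 of 15 (26.2%). Both were below the 34.7% of Zfp982 at Cebpd, but these matches had their centres 46 and 78 bp from the summit. The RCADE motif of Zfp_MB023 differed at 14 of 27 letters at Chac1, and 94.0% of the other windows were as close or closer. For Zfp600 and Zfp_MB025 no motif was given. None of the 13 windows with a MEME motif had an exact match, nor did any of the 7 with a motif from RCADE, the other tool the study used. An exact MEME match was in 2.79% (Zfp_MB003), 8.87% (Zfp_MB011), 15.7% (Zfp_MB023) and 44.9% (Rex2) of the other windows. For RCADE it was in 14.8% (Zfp982), 5.36% (Zfp6002) and 0.134% (Zfp_MB005), and in none for Zfp6001, Zfp_MB023 and Rex2. An exact match was thus in a minority of the other windows of every list.

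The G and C content of the summit windows was 63.2% to 67.7% at Fos, 58.7% to 61.7% at Chac1, 71.6% at Cebpd and 69.7% to 77.1% at the canonical start of Hsp90aa1. It was 46.8% and 48.3% at the distal start of Hsp90aa1. The other windows of the same lists had median contents from 43.3% (Zfp_MB023) to 68.2% (Zfp_MB025), and those near protein-coding starts from 46.3% (Zfp_MB023) to 72.6% (Zfp982). Of the 17 windows, 11 were above the median of all other windows of their list, but only 6 were above that of its other windows near protein-coding starts and 11 below it. At Cebpd, for instance, the content was 71.6%, against 72.6% in such windows of Zfp982.
None of the 17 windows had a second copy in the genome, taken as an alignment of at least 100 bp at 80% identity or more. Among the other 590 windows near protein-coding starts in the 10 lists with fewer than 1000 peaks, 81 (13.7%) had such a copy.

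Known promoter elements were looked for in the 300 bp from 250 bp before to 50 bp after each canonical start, on both strands. Fos had a TATA box (TATAAA) at -27 and a GC box (GGGCGG) at -68, Cebpd had GC boxes at -122 and -58, and Hsp90aa1 had a GC box at -15. Chac1 had a C/EBP-ATF response element (TGATGNAA) at -159, 3 CCAAT boxes (CCAAT) and 3 GC boxes. A heat shock element (GAANNTTC) was present at the distal start of Hsp90aa1, at +6, and not in the window of the canonical start. Of all 21757 protein-coding promoters, 13.2% held the TATA box, 42.5% the GC box, 39.9% the CCAAT box, 3.84% the C/EBP-ATF response element and 7.41% the heat shock element. The cAMP response element (TGACGTCA), the CArG box, the E box (CACGTG), the ETS site (CCGGAAGT) and the AP-1 site (TGANTCA) were in none of these windows and in 2.45%, 1.54%, 7.82%, 4.35% and 7.15% of all promoters. Only exact matches inside the 300 bp were counted, so an element farther away or with other letters would be missed. Their absence here does not show that a gene lacks them. The summits at Fos (apart from that of Zfp_MB016) and at Chac1 lay downstream of all elements found.

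Taking all 17 peaks, 16 summits lay within 400 bp of the nearest start, 7 upstream and 10 downstream of it. Measured from the canonical start, 5 lay upstream and 12 downstream. By the canonical transcript of each gene, 6 summits were in coding sequence, 6 in an intron and 5 outside the span of that transcript. The word promoter thus covers the first exon and intron here. The fold was above the median of its list for 12 of the 17 peaks, and all 17 were wider than the median width of their list. Widths were not compared with the list's peaks near protein-coding starts alone.

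The families and pathways of the 4 genes were looked up with lists compiled from textbook knowledge. Among 23 other immediate early genes, 16 (69.6%) had a summit near a start in any list, against 22.9% of all protein-coding genes, and the median gene was in 1 list. Zfp982, whose list reaches 12.3% of all genes, was at 9 of the 23, Zfp_MB011 at 6, Zfp_MB025 at 4 and Zfp_MB016 at 3. Jund (a JUN family partner of FOS) was in 5 lists, Egr1 (a zinc finger transcription factor) in 4 and Ier2 in 3.
Egr1 was bound by Zfp600, Zfp_MB011, Zfp_MB016 and Zfp_MB025, with folds of 6.89, 12.5, 13.98 and 19.7. It ranked 3 of 296 for Zfp_MB011 and 6 of 56 for Zfp_MB025. Jund ranked 3 of 56 for Zfp_MB025 with a fold of 21.6 and a width of 4344 bp, and was also bound by Zfp6001, Zfp6003, Zfp982 and Zfp_MB011. In the list of Zfp_MB025, Fos, Jund, Chac1 and Egr1 thus held ranks 2, 3, 5 and 6, and Ino80d rank 4. Fosl2, Egr2, Egr3, Ier5, Atf3, Zfp36 and Maff were in no list.

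Of all protein-coding genes 22.9% had a summit in any list. Among 21 other heat shock proteins and cofactors it was 10 (47.6%), with a median of 0 lists and at most 2. Zfp982, whose list reaches 12.3% of all genes, was at 5 of them, and Zfp_MB016, whose list reaches 6.11%, at 3. Hspd1 and Hspe1 were both counted through the same Zfp982 peak, with a fold of 22.3 and a width of 1686 bp. Zfp982 was near the constitutive HSP90 gene Hsp90ab1 with a fold of 12.8, and Zfp981 with 5.23. Hspa5, the HSP70 of the endoplasmic reticulum, was bound by Zfp_MB025 (10.9) and Zfp_MB026 (19.9). The stress-inducible HSP70 genes Hspa1a and Hspa1b and the heat shock factor gene Hsf1 were in no list. The highest fold at the 10 genes was 33.5, for Zfp_MB016 at Cryab, and at Hsp90aa1 it was 205, for the same KZFP.

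Among 19 other genes of the integrated stress response, 10 (52.6%) had a summit in any list, against 22.9% of all protein-coding genes. The median was 1 list. Ddit3, which encodes the transcription factor CHOP, was bound by Zfp982 (17.3), Zfp_MB016 (51.9) and Zfp_MB026 (16.03). Atf4, the main regulator of the response, was bound by Zfp_MB003 (6.08) and Zfp_MB016 (34.1). The lists of Zfp982, Zfp_MB016, Zfp_MB026 and Zfp_MB003 reach 12.3%, 6.11%, 2.85% and 1.39% of all protein-coding genes. Of the 5 KZFPs at Chac1, Zfp_MB025 was also at Ddit4 (14.1, width 3338 bp) and Zfp_MB023 at Ppp1r15a (12.9). Zfp_MB011, whose list reaches only 0.437% of all protein-coding genes, was at none of the 19.
In the C/EBP family, 2 of the 5 other genes (40%) had a summit in any list, against 22.9% of all protein-coding genes. The 2 were Cebpa and Cebpb, bound by Zfp982, as was Cebpd, and by no other KZFP. The list of Zfp982 reaches 12.3% of all protein-coding genes. The folds were 149 at Cebpd, 18.6 at Cebpb and 10.3 at Cebpa, and the ranks 9, 1899 and 4499 of 4746. Cebpe, Cebpg and Cebpz were in no list.

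The genes whose set of lists was most like that of a member were found by the Jaccard index, the number of shared lists over the number of lists of either gene. For Fos they were Egr1 (0.67, with 4 shared lists) and, at 0.50 each, Actb, Eef1a1, Gtf2a1 and Ier2. For Chac1 they were Ier2 (0.60), Egr1 (0.50), Klf2 (0.40), and Actb and Fos (0.38 each). For Hsp90aa1 they were Auts2, Cntnap5a, Crot, Ddb1 and Inava (0.60 each), all through Zfp982, Zfp_MB005 and Zfp_MB016. These indices are over 42 lists, rest on 2 to 4 shared lists each, and describe which lists hold the genes.

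**Figure D5:**
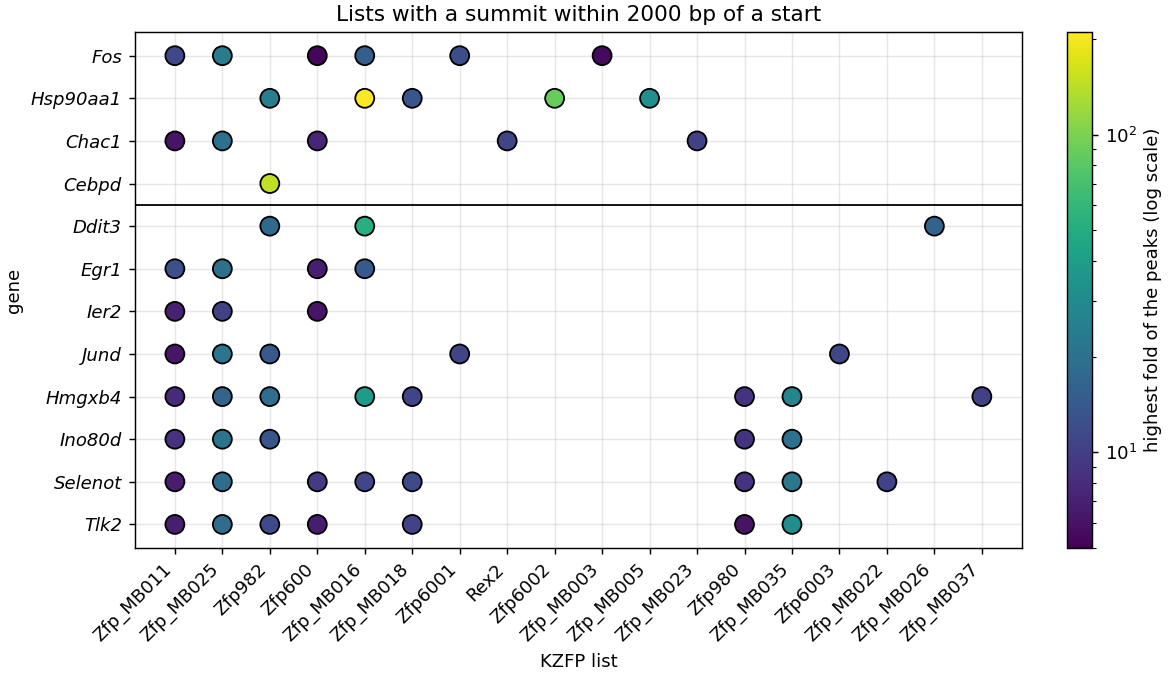
KZFP lists with a summit within 2000 bp of a start (circles) of the 4 genes, above the line, and of other genes, below it: the related genes in at least 3 lists (Ddit3, Egr1, Ier2, Jund) and the recurrently bound Hmgxb4, Ino80d, Selenot and Tlk2. Colour gives the highest fold of the peaks (log scale). Zfp_MB011 and Zfp_MB025 are at Fos, Chac1, Egr1, Ier2, Jund and the 4 recurrent genes. Zfp980 and Zfp_MB035, whose lists reach 0.0873% and 0.432% of all protein-coding genes, are at the recurrent genes. They are not at Fos, Hsp90aa1, Chac1 or Cebpd.

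The promoters of Selenot, Tlk2, Ino80d and Hmgxb4, which were in 5 to 8 lists, are another set of host promoters bound by several KZFPs. They shared with Fos and Chac1 the lists of Zfp_MB011 and Zfp_MB025. All 4 recurrent promoters were also bound by Zfp980 and Zfp_MB035, which were at none of Fos, Hsp90aa1, Chac1 and Cebpd. The list of Zfp980 had a summit near 0.0873% of all protein-coding genes and that of Zfp_MB035 near 0.432%. At such shares nearly all genes lack a peak in either list. Zfp_MB035 shares its fingerprint array with Zfp6001, which had a peak at Fos, and with Zfp6003, which had none there. In the list of Zfp_MB025 the folds were 23.6 at Fos and 19.8 at Chac1, and 18.7 at Selenot, 18.5 at Tlk2, 20.8 at Ino80d and 16.4 at Hmgxb4. The widths were 5067 and 6810 bp at Fos and Chac1, and 617, 836, 1287 and 489 bp at Selenot, Tlk2, Ino80d and Hmgxb4. The summits at the 4 recurrent promoters in this list lay at +85 to +242, nearer to the start than those at Fos (+298) and Chac1 (+390).
In the list of Zfp_MB025, 38 of 55 peaks on chromosomes (69.1%, exact 95% binomial interval 55.2% to 80.9%) had a summit near a protein-coding start, and in that of Zfp_MB003 it was 253 of 360 (70.3%, 65.3% to 74.95%). For Zfp_MB011 the share was 28.2% (23.2% to 33.7%), for Zfp600 31.4% (19.1% to 45.9%), for Rex2 7.03% (3.27% to 12.9%) and for Zfp6001 5.88% (2.19% to 12.4%). The intervals cover counting error only.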

How the data were processed

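ChIP-seq was performed for 42 HA-tagged KZFPs in F9 cells, and the deposited peak list of each was used. The 12 other samples (4 empty vector controls, 5 mixed inputs, 3 of HGTC8 embryonic stem cells) have no list used here. Paired reads were mapped by the authors to GRCm39 with BWA. They retained 1 of equally good alignments at random, and called peaks per library with MACS2 2.2.7.1 against the mixed input of the batch; the submitters' processing notes also name SAMtools 1.19 and deepTools 3.5.4. Peaks touching any empty vector peak were removed, and a q value cutoff and a fold of 10, or of 5 for lists left with few peaks, were applied. The deposited fold enrichment is a ratio over input computed by MACS2. The deposited -log10 q and -log10 p are those of MACS2, and the deposited display score was not used. Read depth is not in these files, and its part in the folds and in missing peaks was not tested.

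Chromosome accessions were translated to numbers: 23.2% of 24975 summits lay within 2000 bp of a protein-coding start as translated and 6.75% with chromosomes rotated by 1. The 37 peaks on scaffolds entered ranks only. Distances to all GENCODE M39 starts, ranks (1 is the highest), widths, sequences and motif matches were computed in Python 3.11.15 (pandas 2.3.3, pysam 0.24.0), and copies of windows with blastn 2.17.0. A distance of 0 is the first base of the transcript. Motif positions are those of the first base of the site and skip 0. The counting was tested on simulated data. With 1 library per KZFP and genes chosen on these data, no test was run. The genes, gene lists and comparisons were chosen with earlier results of these data known. The text names each peak of the 4 genes, genes starting near the same summits, peaks within 10000 bp, related genes in at least 3 lists (others were named after their values were seen), the 5 genes most alike in lists for each gene with 3 or more lists, and the 10 genes with the most lists. The share of repeat-masked bases was not computed, as the genome copy used carries no masking.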

Additional observations from a re-analysis of the deposited data

How the results depend on the processing

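Of 72 values under other settings, 62 kept within 1.5 times the count or, for a median, within the spread between lists. With a fold of at least 10 in every list Chac1 was in 3 lists instead of 5, and with a fold of at least 15 Chac1 was in 1, Fos in 2 instead of 6 and 2718 instead of 4989 protein-coding genes had a summit near a start. With only the 5′ end of the gene record as start, Hsp90aa1 was in 2 lists instead of 5 and the median distance at Chac1 was 1278 bp instead of 346 bp. With only the canonical start, an alternative chosen after seeing the data, Hsp90aa1 was in 3 lists and its median distance 352 bp instead of 112 bp. The single Cebpd peak had 99.8% of its list below it by fold, 99.3% by -log10 q and 99.7% among promoter peaks. With only batches 1, 2 and 4, Fos, Hsp90aa1 and Chac1 were in 4 lists each and Cebpd in 1. Each list is 1 library, and no setting stands in for a repeat experiment. No paired analysis was possible because no group has more than 1 list.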
